A study of Mus musculus with 38 samples.

Results

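The 6 genes described here are the B cell factors Pax5 and Arid3a, the receptor Tnfrsf13b, the plasma cell factor Prdm1 and the follicle signals Ltb and Cxcl13. They were found on the array by RefSeq accession, each by 1 probe at 1 spot, among 21618 distinct probes, of which 6518 could be given a gene symbol. The samples were 38 two-colour arrays of spleen RNA from male mice of 6 inbred strains, aged 10 to 14 weeks by the labels (the study's methods give a younger range). On each array, RNA of a mouse exposed to 10 rad of X-rays was set against RNA of a sham-exposed mouse of the same strain, both taken 3.5 h after exposure. The exposed mouse's RNA carried Cy5 on 19 arrays, called Cy5 arrays here, and Cy3 on 19 others, called Cy3 arrays. A/J, B6.C and BalbxJ (Balb/C in the study's text) had 8 arrays each, C3H (C3H/HeJ) had 6, and BI6Jx (taken to be C57Bl6/J) and DBA/2J had 4 each, and each strain had as many Cy5 as Cy3 arrays. Animals were paired at random and each pair was hybridised again with the dyes exchanged, but the labels do not show which arrays share a pair, so the strain was the unit of replication.

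B cells of the spleen lie in follicles within the white pulp and leave them, once activated, to become antibody-secreting plasma cells. Pax5 commits progenitors to the B lineage and keeps them there, whereas Prdm1, which encodes Blimp-1, shuts down the Pax5 program as plasma cells form. Follicles are kept up by an exchange between cells: lymphocytes display lymphotoxin, of which Ltb encodes the membrane-anchoring chain, stromal cells sense it through the lymphotoxin β receptor and switch on Cxcl13, and Cxcl13 draws in B cells that carry Cxcr5. Arid3a (Bright) is a B cell DNA-binding factor that acts at the immunoglobulin heavy chain locus, and Tnfrsf13b (TACI) is a receptor on B cells for the survival factors BAFF and APRIL.

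RefSeq promoter sequences were at hand for 5 of the 6 genes, and 4 are shown because these genes moved together from array to array, as described below. The fifth gene of that group was Arid3a. Each line holds the 250 bases before the annotated start on the gene's own strand in GRCm38.p6: Pax5 at chr4:44710695-44710944 on the minus strand, and on the plus strand Tnfrsf13b at chr11:61126505-61126754, Ltb at chr17:35194257-35194506 and Cxcl13 at chr5:95956689-95956938. Capitals mark matches on either strand to GGGNNNNNCC, the general form of the site bound by NF-κB, the factor that carries the lymphotoxin β receptor signal, and to TATAAA, the TATA box.
Pax5: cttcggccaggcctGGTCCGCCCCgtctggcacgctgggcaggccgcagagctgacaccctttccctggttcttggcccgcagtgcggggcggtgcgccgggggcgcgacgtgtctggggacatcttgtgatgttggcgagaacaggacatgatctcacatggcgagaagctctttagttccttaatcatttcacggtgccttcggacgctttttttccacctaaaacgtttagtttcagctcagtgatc
Tnfrsf13b: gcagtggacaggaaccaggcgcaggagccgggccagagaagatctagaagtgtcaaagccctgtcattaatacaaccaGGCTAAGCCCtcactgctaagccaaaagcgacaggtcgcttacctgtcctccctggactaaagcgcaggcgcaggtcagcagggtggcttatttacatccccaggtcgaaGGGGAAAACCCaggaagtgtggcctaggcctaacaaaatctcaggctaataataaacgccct
Ltb: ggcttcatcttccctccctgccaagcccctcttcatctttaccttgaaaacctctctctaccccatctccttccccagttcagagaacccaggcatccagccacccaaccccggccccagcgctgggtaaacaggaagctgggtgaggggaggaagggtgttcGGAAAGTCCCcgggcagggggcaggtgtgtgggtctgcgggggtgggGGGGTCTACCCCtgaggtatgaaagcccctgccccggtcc
Cxcl13: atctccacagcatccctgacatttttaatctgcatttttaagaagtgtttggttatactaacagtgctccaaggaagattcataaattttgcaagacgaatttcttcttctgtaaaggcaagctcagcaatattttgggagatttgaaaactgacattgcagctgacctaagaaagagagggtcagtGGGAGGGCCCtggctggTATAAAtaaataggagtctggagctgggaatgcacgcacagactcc
Ltb held 4 matches to GGGNNNNNCC, of which 3 overlap one another, Tnfrsf13b held 3, of which 2 overlap, and Pax5 and Cxcl13 held 1 each. Prdm1, whose promoter is not shown, held 3. Of 32851 promoters in the table, 45.8% held such a match within their 250 bases. TATAAA occurred in Cxcl13 alone among the 5 genes, 46 bases before its start, and in 12.4% of all promoters. ATGCAAAT, the octamer of immunoglobulin promoters, was in none of the 5 and in 1.60% of all.

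The deposited value of a spot is a signed score comparing both dyes, with no scale, log base or dye direction given in the sources used here, so no fold change is given. Each array was centred on its median, since array medians ran between -3.16 and 3.95, and on Cy3 arrays the sign was reversed, called turned below. A value on the positive side then means more signal from irradiated spleen if scores are Cy5 over Cy3, and less if they run the other way. If scores already compare irradiated with sham RNA on every array, turning would be wrong. Which of these holds is not known. Array SDs lay between 0.616 and 2.35, with all C3H and BI6Jx arrays at 1.28 or above. Also above 1.28 were arrays 35 (1.72), 36 (2.07) and 84 (1.44) of BalbxJ and array 34 (1.66) of DBA/2J. The highest BalbxJ scores of Pax5, Arid3a and Tnfrsf13b given below came from arrays 35 and 36. Values were present for Cxcl13 on all 38 arrays, for Arid3a on 33, Ltb on 32, Pax5 and Tnfrsf13b on 30 each and Prdm1 on 29, and 19 arrays had all 6 genes. Single arrays of A/J held as few as 1 of the genes. For 3 arrays the direction is unsettled, because they correlated below -0.3 with others of their own dye orientation: the Cy3 array 50 of B6.C (lowest r -0.414), the Cy3 array 97 of BI6Jx (-0.658) and the Cy5 array 53 of B6.C (-0.449). The array number is that of the sample label. In whole spleen, fewer cells of a type and less RNA per cell cannot be told apart.

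In most strains the sign of the turned score depended on which dye the irradiated RNA carried, for these genes as for the array as a whole. With 6 genes in 6 strains there were 36 pairs of means, of which 6 had an orientation with a single array. The means had opposite signs in 24 of 36, against 63.4% of such pairs over all probes tested. The Cy5 mean was on the positive side in 27 of 36 (48% over all probes), and the turned Cy3 mean in 17 of 36 (46.5%). The response, the average of both means, was therefore set beside the dye component, the Cy5 mean minus the response. The dye component is what keeps its sign on the array when the dyes are exchanged. If scores already compare irradiated with sham RNA on every array, this component would hold the radiation response instead. That reading was not tested.

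**Figure D1:**
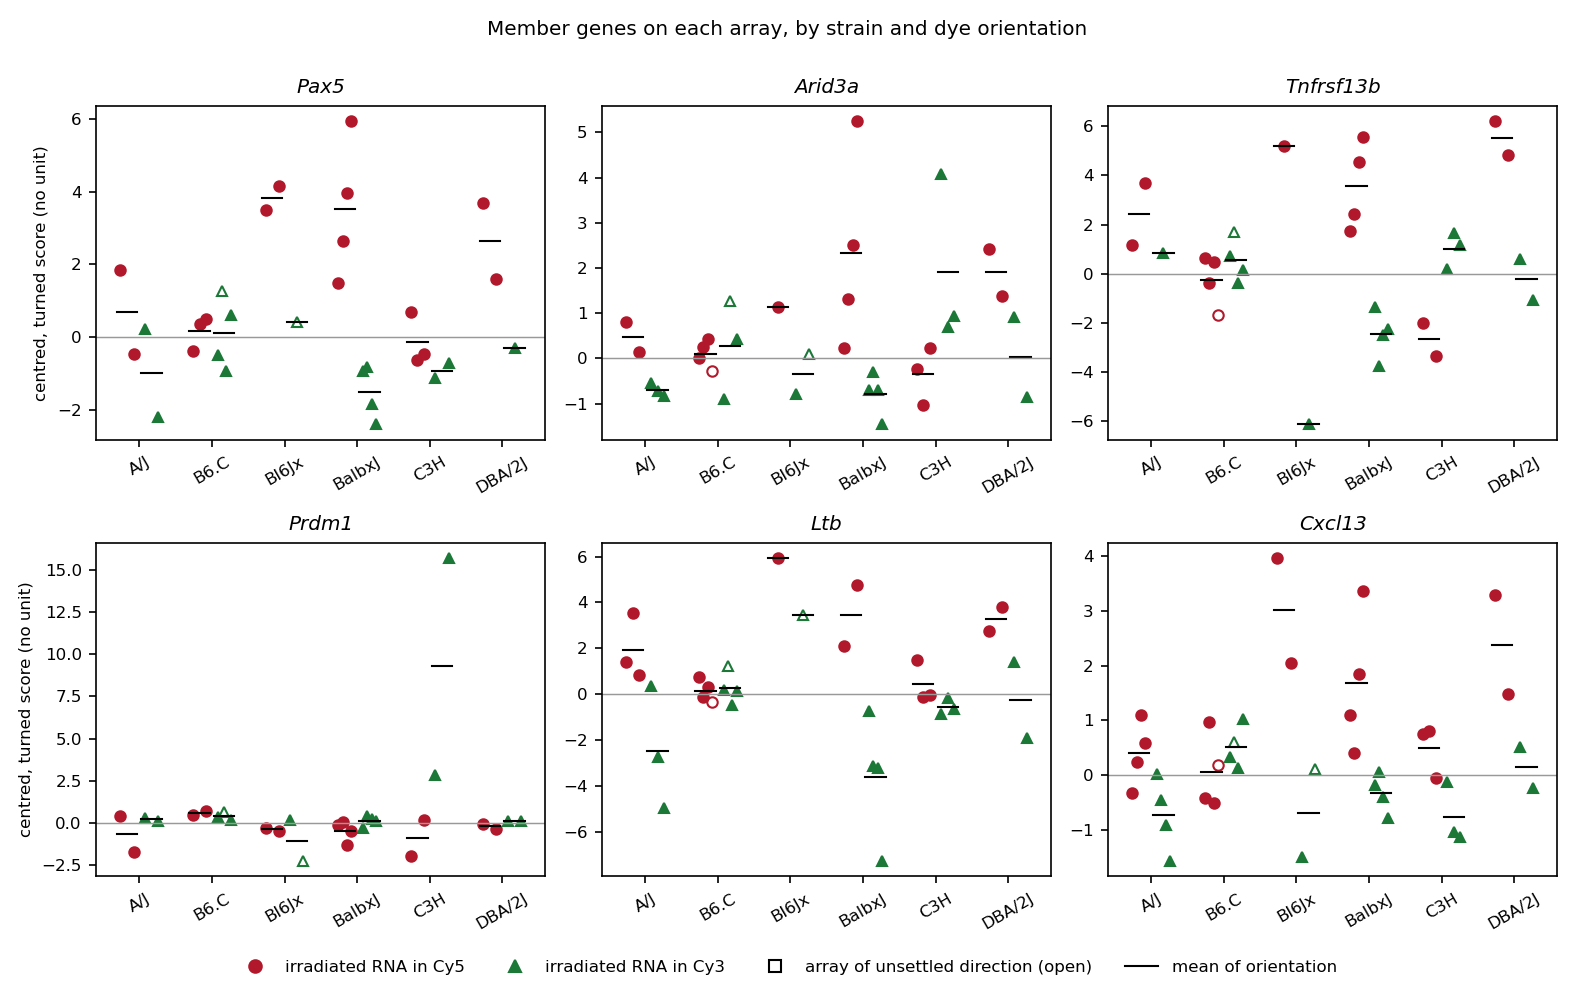
Centred, turned score (no unit) of each gene on each array, by strain; circles are Cy5 arrays, triangles Cy3 arrays, bars the mean of each orientation and open symbols the 3 arrays of unsettled direction. In BalbxJ the circles of Pax5, Arid3a, Tnfrsf13b and Ltb all lie above 0 and the triangles all below, and 1 triangle of Prdm1 in C3H lies at 15.7.

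Over the 6 strains, none of the 6 genes passed the test of the response (limma, adjusted p under 0.05), and the share of all 14513 probes tested that passed was 0%. Their means were 0.631 ± 0.982 for Pax5, 0.499 ± 0.413 for Arid3a and 0.613 ± 1.32 for Tnfrsf13b (SD over 6 strains). For Prdm1, Ltb and Cxcl13 they were 0.591 ± 1.81, 0.999 ± 1.92 and 0.517 ± 0.622. All 6 means were on the positive side, where 48.7% of all probes lay. At an unadjusted p under 0.05, 2 of 6 passed, Arid3a and Cxcl13, against 8.21% of all probes. The 6 genes were chosen with earlier results of these data known. Shares set beside them, here and elsewhere, are therefore no independent evidence about them. Arid3a had a 95% interval of 0.136 to 0.863 and Cxcl13 one of 0.0348 to 0.999, and in limma both had an adjusted p = 0.567. The strain values of Arid3a were positive in 5 of 6 strains and those of Cxcl13 in 4. In an exact sign-flip permutation test over the 6 strains, two-sided, Arid3a gave p = 0.0625 and Cxcl13 p = 0.156, where 0.0312 is the smallest p the test allows. The intervals of the other 4 genes spanned 0.

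The means of Ltb, Pax5, Tnfrsf13b and Prdm1 depended on single strains. That of Arid3a stayed between 0.404 and 0.621 with any strain or array left out, except array 96 of BI6Jx. Array 96 held the only Cy5 value of Arid3a in BI6Jx, so without it Arid3a could not be tested. Ltb, Pax5 and Cxcl13 were highest in BI6Jx and DBA/2J, and the mean of Ltb was larger in size than that of 99.8% of all probes (Pax5 98.1%, Cxcl13 95.8%). Without BI6Jx the mean over the remaining strains was 0.261 for Ltb and 0.333 for Pax5. Without DBA/2J that of Tnfrsf13b was 0.207. With the sign of array 97 of BI6Jx turned, the mean of Ltb was 0.427. Without the 3 unsettled arrays neither Ltb nor Pax5 has a Cy3 array in BI6Jx, so neither could be fitted, and Arid3a was at 0.431, Tnfrsf13b at 0.621, Prdm1 at 0.681 and Cxcl13 at 0.444. Prdm1 turned on C3H, without which its mean was on the negative side, at -0.131, and without array 28 of C3H it was 0.0553.

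The dye component was on the positive side for 5 of 6 genes (47.2% of all probes) and was largest for Tnfrsf13b, at 1.69 ± 2.71, and Ltb, at 1.53 ± 1.27 (SD over 6 strains). Pax5 averaged 1.15 ± 0.915, Cxcl13 0.824 ± 0.692 and Arid3a 0.435 ± 0.929. Prdm1 stood on the other side, at -0.922 ± 2.06, with C3H at -5.09. Pax5 was positive in all 6 strains, though close to 0 in B6.C, at 0.0206. A dye component of one sign in all 6 strains occurred in 12.7% of probes. The exact sign-flip permutation test of Pax5 over 6 strains gave p = 0.0312, the smallest the test can give. Ltb and Cxcl13 were positive in 5 of 6 strains, all but B6.C, where they were at -0.0641 and -0.230. By limma no gene passed after adjustment (0% of probes did), with adjusted p = 0.0878 for Pax5, 0.0882 for Ltb and 0.100 for Cxcl13. These 3 of 6 had an unadjusted p under 0.05, as did 24.2% of all probes. All 3 were positive, and 20.1% of all probes were positive with such a p. Without B6.C all 3 passed after adjustment by limma (adjusted p of 0.0349 for Pax5, 0.0333 for Ltb and 0.0315 for Cxcl13), as did 12.4% of all probes tested there. Without C3H Pax5 and Ltb passed (0.0475 each), as did 12.7% of probes.

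**Figure D2:**
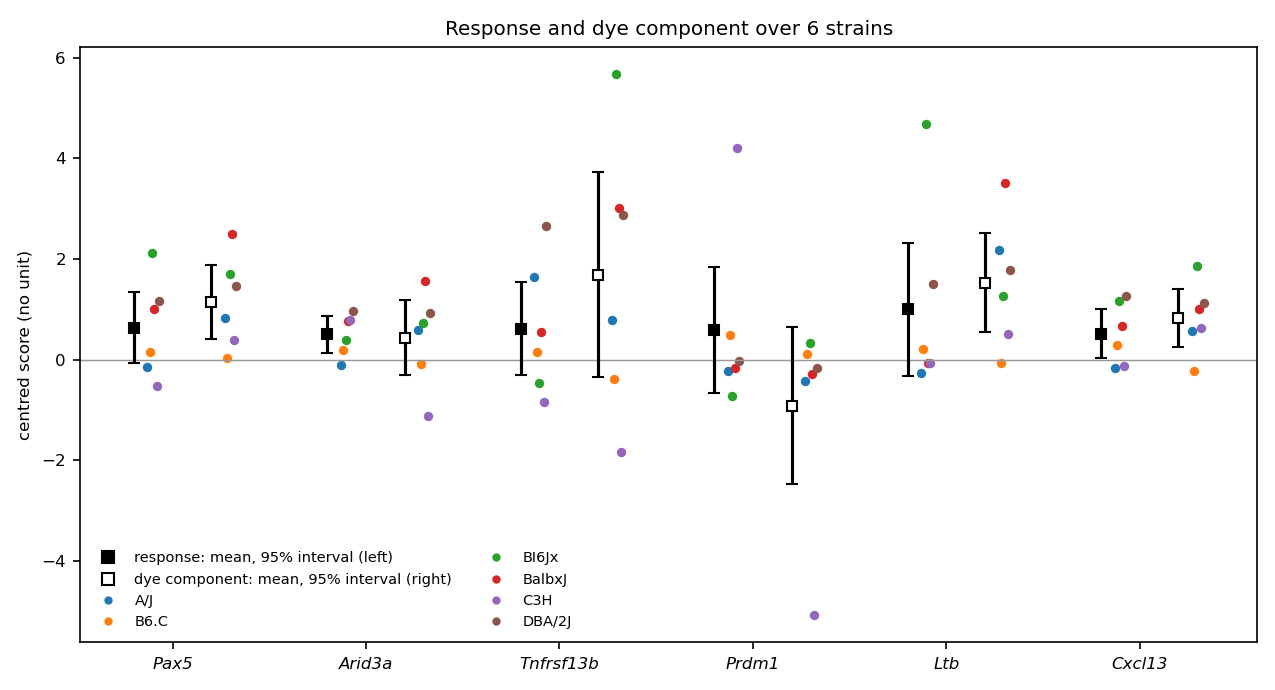
Response (filled squares) and dye component (open squares) of each gene as the mean over 6 strains with its 95% interval, in centred scores; small points are the single strains. The intervals of the dye component lie above 0 for Pax5, Ltb and Cxcl13, and those of the response lie above 0 for Arid3a and Cxcl13.

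The B cell factors Pax5 and Arid3a showed the exchange of sign most plainly in BalbxJ. Pax5 had scores of 1.495, 2.65, 3.965 and 5.94 on the Cy5 arrays there, and turned scores of -0.914, -0.819, -1.84 and -2.39 on the Cy3 arrays. Arid3a had 0.2265, 1.32, 2.51 and 5.25 on the Cy5 arrays, and -0.694, -0.305, -0.700 and -1.46 on the Cy3 arrays. For both genes the dye orientations did not overlap, and before turning every array of BalbxJ had both genes above its median. The response that remained in BalbxJ was 1.01 for Pax5 and 0.769 for Arid3a.

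Elsewhere Pax5 had 3.50 and 4.15 on the Cy5 arrays of BI6Jx and 0.421 on array 97, the single Cy3 array there that measured it. In DBA/2J it had 3.69 and 1.595 on Cy5 arrays and -0.2975 on 1 Cy3 array. In both strains all Cy5 arrays were above the Cy3 array. Its 7 arrays of B6.C lay between -0.925 and 1.275, with the orientations mixed. A/J had 1.85 and -0.467 on Cy5 arrays and 0.2325 and -2.18 on Cy3 arrays, which overlap. In C3H the Cy5 arrays lay between -0.627 and 0.689 and the Cy3 arrays at -1.12 and -0.697, just below them. Arid3a was positive on 3 of 4 arrays of DBA/2J, the strain of its highest response (0.9735). In C3H its highest score, 4.08, came from the Cy3 array 24, against 0.693 and 0.932 on the other 2 Cy3 arrays. In A/J its scores were 0.805 and 0.150 on Cy5 arrays and -0.534, -0.728 and -0.826 on Cy3 arrays, again without overlap.

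Tnfrsf13b, the receptor, had the widest swing between dyes. In BI6Jx it was measured once in each orientation, at 5.22 on the Cy5 array and -6.14 on the Cy3 array, which left a response of -0.462 beside a dye component of 5.68. In BalbxJ it had 1.73, 2.42, 4.54 and 5.56 on Cy5 arrays, and -1.36, -3.75, -2.51 and -2.245 on Cy3 arrays. C3H ran the other way, at -2.02 and -3.34 on Cy5 arrays and at 0.176, 1.66 and 1.16 on Cy3 arrays. The highest response was in DBA/2J, 2.65, from 6.22 and 4.85 on Cy5 arrays and 0.577 and -1.05 on Cy3 arrays. In A/J the 3 arrays that measured it were all positive, at 1.15 and 3.70 on Cy5 arrays and 0.844 on the Cy3 array.

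Prdm1, the plasma cell factor, kept close to 0 in BalbxJ, where its 8 arrays lay between -1.28 and 0.385, and in DBA/2J, where its 4 arrays lay between -0.3425 and 0.14. In BI6Jx it had -0.280 and -0.490 on Cy5 arrays and 0.156 and, on array 97, -2.27 on Cy3 arrays. In C3H it had -1.96 and 0.185 on Cy5 arrays, and 2.87 and 15.7 on the Cy3 arrays that measured it. The score of 15.7, on array 28, was the highest of any of the 6 genes on any array, and the SD of all probes on that array was 2.35. All 5 arrays of B6.C were on the positive side, from 0.192 to 0.694, the one case among the 6 genes in which every array of both orientations was on one side of 0 in a strain with at least 2 arrays of each. Such one-sided probes made up 1.89% of the total in B6.C, and 0.978% in A/J, 8.18% in BI6Jx, 2.56% in BalbxJ, 3.33% in C3H and 7.99% in DBA/2J. Of these B6.C arrays, array 50 had 0.636, so with its sign turned the 5 arrays would no longer share a side.

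The follicle signals Ltb and Cxcl13 differed in how completely they were measured. Ltb had 5.95 on the Cy5 array 96 of BI6Jx and 3.435 on the Cy3 array 97, and no value on the other 2 arrays of the strain, so its highest response (4.69) rested on 2 arrays of which 1 has no settled direction. In BalbxJ it had 2.10 and 4.78 on Cy5 arrays and -0.736, -3.13, -3.21 and -7.28 on Cy3 arrays. In DBA/2J it had 2.76 and 3.815 on Cy5 arrays and 1.40 and -1.92 on Cy3 arrays. A/J had 1.385, 3.54 and 0.824 on Cy5 arrays and 0.3415, -2.75 and -4.96 on Cy3 arrays. In these 3 strains no Cy5 array was as low as any Cy3 array. This held narrowly in C3H too, with Cy5 arrays from -0.143 to 1.49 and Cy3 arrays from -0.883 to -0.149. The 8 arrays of B6.C lay between -0.483 and 1.23 with the orientations mixed.

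Cxcl13 was measured on every array. It had 3.97 and 2.06 on the Cy5 arrays of BI6Jx and -1.49 and 0.109 on the Cy3 arrays. In BalbxJ it had 1.10, 0.402, 1.86 and 3.36 on Cy5 arrays and -0.186, 0.0557, -0.408 and -0.774 on Cy3 arrays. In DBA/2J it had 3.29 and 1.48 on Cy5 arrays and 0.524 and -0.231 on Cy3 arrays. The orientations did not overlap in these 3 strains. Nor did they in C3H, where Cy5 arrays lay between -0.0567 and 0.816 and Cy3 arrays between -1.135 and -0.115. The response of Cxcl13 was 1.27 in DBA/2J, 1.16 in BI6Jx and 0.6755 in BalbxJ. It was nearer to 0 in B6.C (0.290), C3H (-0.129) and A/J (-0.165).

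In each strain the share of all probes that switched sides with the dyes was set beside the genes, over probes with at least 2 arrays in each orientation. Every Cy5 array was above 0 and every turned Cy3 array below 0 for 4 of 6 genes in BalbxJ (Pax5, Arid3a, Tnfrsf13b and Ltb), against 9.99% of probes. In A/J this held for 1 of 5 genes, Arid3a, against 5.59%. It held for none of 6 genes in B6.C (0.922% of probes) or C3H (21.1%), none of 2 in BI6Jx (4.44%) and none of 5 in DBA/2J (15.5%). The opposite arrangement held for Tnfrsf13b in C3H, with 13.9% of probes, and for Prdm1 in DBA/2J, with 18% of probes. Non-overlap by itself, with every Cy5 array above every turned Cy3 array, was common over all probes. It held for 5 of 6 genes in BalbxJ, all but Prdm1, against 16.9% of probes, and for 4 of 5 in DBA/2J, Arid3a, Tnfrsf13b, Ltb and Cxcl13, against 30.2%. It held for 2 of 5 in A/J, Arid3a and Ltb (12.5%), 1 of 2 in BI6Jx, Cxcl13 (20%), 3 of 6 in C3H, Pax5, Ltb and Cxcl13 (33.8%), and 0 of 6 in B6.C (2.93%).

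The study drew its mice from several strains, and the strains were compared within one dye orientation, where the sign of the score need not be turned. On Cy5 arrays, 3 genes had at least 2 arrays in every strain. None passed limma's F test, which 3.58% of 10465 probes passed, although Cxcl13 (adjusted p = 0.0828) and Pax5 (adjusted p = 0.0932) had an unadjusted p under 0.05, which 26.1% of probes had, and Prdm1 did not (adjusted p = 0.719). After each array was also divided by its spread, Cxcl13 (adjusted p = 0.0191) and Pax5 (adjusted p = 0.0265) passed by limma, as did 11% of probes. On Cy3 arrays none of Arid3a, Prdm1 and Cxcl13 passed, against 2.37% of 9457 probes, with adjusted p of 0.278, 0.184 and 0.334 in limma's F test. Arid3a and Prdm1 had an unadjusted p under 0.05, which 17.3% of probes had. Tnfrsf13b and Ltb lacked the arrays in both orientations. By their means on Cy5 arrays, Cxcl13 was ordered BI6Jx (3.02), DBA/2J (2.39), BalbxJ (1.68), C3H (0.504), A/J (0.402) and B6.C (0.0606), and Pax5 BI6Jx (3.82), BalbxJ (3.51), DBA/2J (2.64), A/J (0.693), B6.C (0.163) and C3H (-0.134). In both orders the arrays of the first 3 strains overlapped one another, as did those of the last 3.

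When each strain was tested by itself over its arrays, with a dye term common to all strains, none of the 6 genes passed after adjustment in any strain. The share of probes that passed was 0% in A/J, 0.186% in B6.C, 0.0345% in BI6Jx, 0% in BalbxJ, 0.51% in C3H and 0% in DBA/2J. At an unadjusted p under 0.05, 3 of 6 genes passed in BI6Jx, against 6.39% of probes: Ltb (4.69, SE 1.36, limma adjusted p = 0.567), Pax5 (2.30, SE 0.833, limma adjusted p = 0.744) and Cxcl13 (1.16, SE 0.481, limma adjusted p = 0.765). In DBA/2J 2 of 6 passed, against 6.2%: Cxcl13 (1.27, SE 0.481, limma adjusted p = 0.759) and Tnfrsf13b (2.65, SE 1.26, limma adjusted p = 0.802). In C3H Prdm1 passed (4.20, SE 1.32, limma adjusted p = 0.138), against 12% of probes. With a dye term of its own for each strain, Prdm1 passed in C3H also after adjustment (limma adjusted p = 0.0282), as did 2.49% of probes. This value rested on array 28: without it the C3H value of Prdm1 was 0.458 (limma adjusted p = 0.838) with the common dye term and 0.988 (limma adjusted p = 0.403) with a dye term per strain. None passed in A/J (0.42% of probes), B6.C (5.77%) or BalbxJ (8.29%). Arrays that repeat a pair of mice count as separate here, so these p-values are too small.

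Pax5, Arid3a, Tnfrsf13b, Ltb and Cxcl13 moved together from array to array, whereas Prdm1 did not over all arrays. Over 26 shared arrays Pax5 and Ltb had Pearson's r of 0.851, and r was 0.875 on 12 Cy5 arrays and 0.802 on 14 Cy3 arrays. Pax5 and Arid3a had r of 0.892 on 14 Cy5 arrays and 0.637 on 13 Cy3 arrays. Pax5 and Cxcl13 had r of 0.787 on 16 Cy5 arrays and 0.688 on 14 Cy3 arrays. Among these 5 genes every pair had r of 0.512 or above over all shared arrays, and within an orientation the lowest was that of Arid3a and Cxcl13, 0.233 on 17 Cy3 arrays. Prdm1 had r between -0.317 and 0.0267 with the others, and Spearman's rho, in which 15.7 on array 28 weighs less, between -0.642 and -0.210. On Cy3 arrays, however, it had r of 0.431 with Arid3a (14 arrays) and 0.321 with Tnfrsf13b (13 arrays), above that of Arid3a and Cxcl13. The score of 15.7 on the Cy3 array 28 weighs in both values, and rho was not computed within an orientation. Over the 6 strains the dye component of Prdm1 had r of 0.171 to 0.784 with those of the others, while the responses of the 5 genes had r between -0.178 (Tnfrsf13b and Ltb) and 0.919 (Pax5 and Cxcl13), so the shared movement was seen over arrays and for only some pairs in the strain responses. These are descriptions over arrays that share strains, dyes and, in part, mice, and the centring of each array. How often other pairs of probes reach such values of r was not counted, so the 5 genes are not set apart from other probes.

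**Figure D3:**
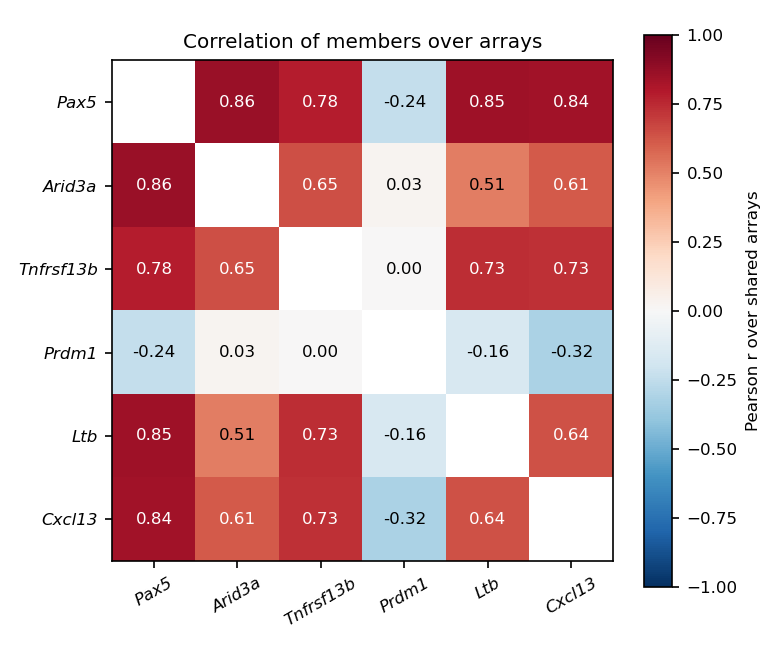
Pearson's r between each pair of the 6 genes over the arrays on which both were measured, from centred, turned scores. Red cells link Pax5, Arid3a, Tnfrsf13b, Ltb and Cxcl13 to one another (r of 0.51 to 0.86), and the row of Prdm1 is pale.

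The named genes most like each member over arrays came from many functions. Each was picked as the highest among 5012 to 5305 candidates, with r taken on turned scores over both orientations, and was not tested. Pax5 was closest to Jph2, a junctional membrane protein of muscle (r = 0.971, 27 arrays), and Zfp54, a zinc finger protein (0.970, 29 arrays). Ltb was closest to Fpr2, a formyl peptide receptor (0.968, 31 arrays), and Spop, a ubiquitin ligase adaptor (0.961, 31 arrays). Cxcl13 was closest to Actrt1 (0.932, 26 arrays) and Gja10 (0.930, 31 arrays), and Arid3a to Mal, a T cell and myelin membrane protein (0.941, 22 arrays), and Nr6a1, a nuclear receptor of germ cells (0.930, 31 arrays). Tnfrsf13b was closest to Cfap20 (0.959, 25 arrays) and Eif2ak2, the kinase that senses double-stranded RNA (0.957, 20 arrays). Prdm1 was closest to Fstl1 (0.983, 21 arrays), a value in which 15.7 on array 28 weighs.

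The partners of these genes were read from the same arrays. Lta, the chain that joins Ltb in surface lymphotoxin, had a response of 0.438 ± 0.440 over 6 strains (limma adjusted p = 0.567), positive in 5, and a dye component of 0.537. Ltbr, their receptor, was on the negative side in all 6 strains, at -0.882 ± 1.09 (limma adjusted p = 0.567). Its dye component was -0.884 on average, although positive in 5 of 6 strains. The share of all probes with a response of one sign in all 6 strains was not counted. Cxcr5, the receptor of Cxcl13, was at 0.243 ± 0.536 (limma adjusted p = 0.635). Of the ligands of Tnfrsf13b, Tnfsf13 (APRIL) had values on 27 arrays but not in both orientations of every strain and was not tested, and Tnfsf13b (BAFF) was not matched to a probe.

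In the wider lists no gene passed after adjustment (limma), and the 6 genes stood at or near the upper end of each list that holds them. Members and lists were chosen with earlier results of these data known, so this place is no independent evidence. The counts and medians of a list include the members it holds, which raises them. Over all probes 48.7% were on the positive side. Of 17 B cell receptor and surface genes tested, 7 were on the positive side, with a median response of -0.108, against -0.00675 over all probes. The smallest p there belonged to Dok3, an adaptor that damps B cell receptor signals (-0.409), Syk, a kinase of that receptor (0.302), and Cd22, an inhibitory receptor (-0.246). Of 9 B cell transcription factors 7 were positive (median 0.06996), and beside the members the smallest p belonged to Pou2af1, a coactivator of immunoglobulin genes (0.315), Bcl11a (0.118) and Lef1 (-0.0761). Of 7 plasma cell genes 6 were positive (median 0.166), with Xbp1, which expands the secretory apparatus and lies downstream of Blimp-1, on the negative side (-0.429). Fkbp11, a secretory pathway protein, was at 0.347 and Tnfrsf17 (BCMA), the receptor related to TACI on plasma cells, at 0.166. Of 7 genes of BAFF, APRIL and CD40 signalling 5 were positive (median 0.166), while Cd40 was at -0.178. The signal adaptors Traf1 (0.449) and Traf3 (0.413) were each positive in 6 of 6 strains, a pattern not counted over all probes. Their dye components were 0.7165 and -0.458. Of 23 follicle organizers 11 were positive (median -0.0578), with Lta and Ltbr as given and Tnfrsf11a (RANK) at -0.405.

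**Figure D4:**
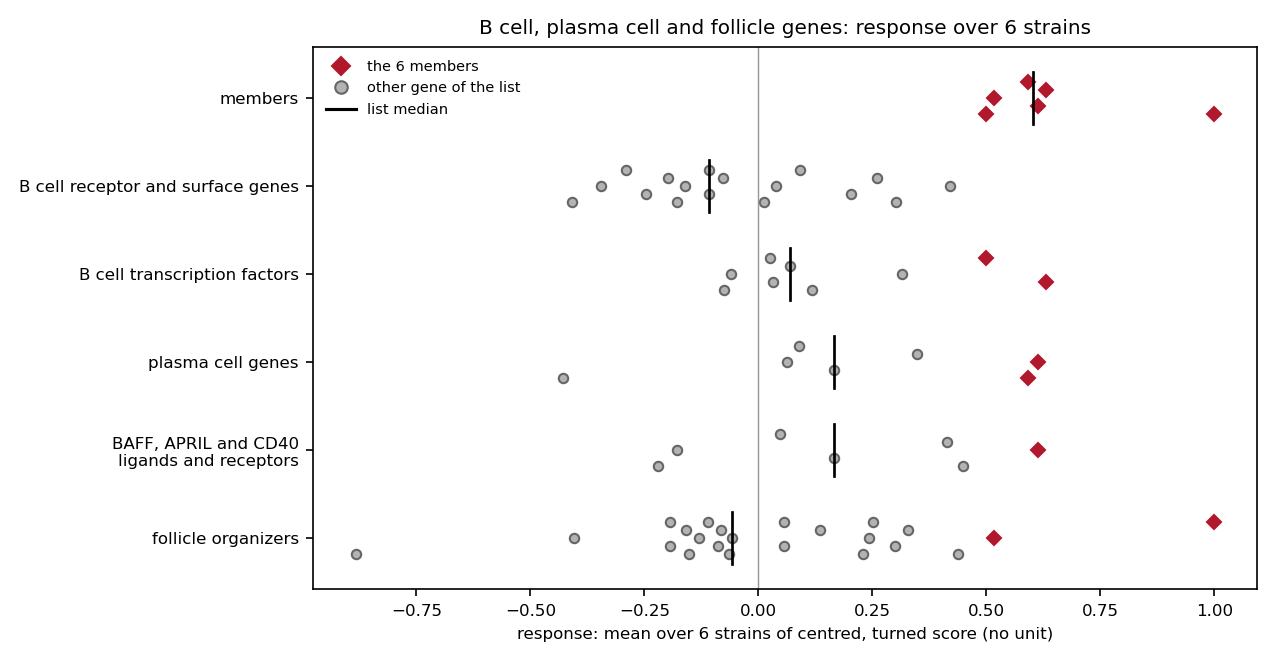
Response over 6 strains (mean of centred, turned scores, no unit) of each gene tested in 5 lists and of the 6 members, with list medians as bars. The members (diamonds) lie between 0.499 and 0.999. The medians of the 5 lists, which include the members a list holds, lie between -0.108 and 0.166.

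Scores hold no level, so the presence of B cells cannot be read from them, and markers of other cells can only be set beside the members. T cell markers had 5 of 7 on the positive side (median 0.128), macrophage and myeloid markers 8 of 13 (0.116), erythroid markers 3 of 9 (-0.127) and stromal markers 4 of 9 (-0.0347). Of 17 pancreatic markers 16 were on the negative side (median -0.331). Their strain medians were -0.890 in BalbxJ, -0.635 in B6.C, -0.312 in A/J, -0.3005 in DBA/2J, 0.0189 in C3H and 0.259 in BI6Jx, beside medians of the 6 members of 0.612, 0.193, -0.153, 1.22, -0.0950 and 0.779 in the same strains. Their part in the values of the members was not tested.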

How the data were processed

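Background-subtracted, quality-filtered signals were normalized by Lowess according to the study's methods. The authors deposited 1 signed score per spot and array, and no source used here states its scale, log base or dye direction. The methods describe median centring of slides for the correlation data, but medians of the deposited arrays differed from 0. A log2 ratio had been foreseen and the scores were used unchanged in its place. The array carried 23232 spots, of which 1235 were controls and not used, and repeated spots were averaged per probe. Accessions were matched to names through RefSeq genes of GRCm38.p6. Arrays were centred on their median, and the sign was reversed on arrays with exposed RNA in Cy3. To be tested, a probe needed 19 or more arrays and a value for either dye orientation in each strain, which left 14513 probes. limma 3.58.1 with statmod 1.5.0 in R 4.3.3 (lmFit, eBayes, Benjamini-Hochberg at 0.05, two-sided) tested 6 strain values against 0, differences between strains (F test), and each strain over 38 arrays. Exact sign-flip permutation tests used 64 arrangements. Python 3.11.15, numpy 2.4.6, pandas 2.3.3 and matplotlib 3.10.9 were used for tables, promoter motifs and figures. The scripts were tested on simulated data.

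The members and the gene lists were chosen with earlier results of these data known, so no list is independent evidence. Named are the 6 members and their listed partners, up to 3 other genes per list with the smallest p, and the 2 genes most correlated with each member, of which 1 is not reported here. Centring, scaling, filters, spread estimates, units of replication and signs of unsettled arrays were varied, and each array and strain was left out in turn. Depth does not apply to arrays, whose number limits the precision.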

Additional observations from a re-analysis of the deposited data

Results flagged for a closer look

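Among 51 groups of 4 to 8 arrays of one gene in one strain, or in one orientation of a strain, 2 held an array that stood apart from the rest by Dixon's criterion, which chance meets in about 1 in 20 groups. Ltb had 1.49 on the Cy5 array 25 of C3H, while the other 5 arrays of the strain lay between -0.883 and -0.0172. Prdm1 had -1.70 on the Cy5 array 85 of A/J, and 0.118 to 0.386 on the other 3.

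For 9 pairs of strains with at least 2 arrays each in one dye orientation, every array of one strain was above 0 and every array of the other below, in turned scores. These pairwise differences were not tested, and how often other probes split strains in this way was not counted. The 9 pairs therefore do not set these genes apart from other probes. For Tnfrsf13b the Cy5 groups of DBA/2J, C3H and A/J held 2 arrays each. On Cy5 arrays (irradiated RNA in Cy5), Tnfrsf13b was higher in DBA/2J than in C3H by 8.21, in BalbxJ than in C3H by 6.25 and in A/J than in C3H by 5.11. On Cy3 arrays C3H was higher than BalbxJ by 3.47 in turned scores, so before turning BalbxJ was above C3H in both orientations. Prdm1, on Cy5 arrays, was higher in B6.C than in BI6Jx by 0.983 and higher in B6.C than in DBA/2J by 0.791. Arid3a, on Cy3 arrays, was higher in C3H than in A/J by 2.60 and higher in C3H than in BalbxJ by 2.69. Cxcl13, on Cy3 arrays, was higher in B6.C than in C3H by 1.28.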

How the results depend on the processing

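The mean responses kept their side under centring, scaling, quantile, filter, weighting, spread and array-unit alternatives (Prdm1, on 29 arrays, was not tested when 30 were asked for) and with unsettled arrays turned, and none passed the test there. Values not turned put Prdm1 at -0.922, and leaving out one strain or array gave ranges of 0.333 to 0.861 for Pax5, 0.404 to 0.621 for Arid3a, 0.207 to 0.904 for Tnfrsf13b, -0.131 to 1.13 for Prdm1, 0.261 to 1.25 for Ltb and 0.367 to 0.653 for Cxcl13, with 0 members and 0 probes called throughout. Where the array left out was the only one with a value for a gene in an orientation of a strain, that gene was not tested. Its range does not cover such fits. As deposited, without centring, 31 probes were called for the response but no member. On Cy5 arrays the F test between strains called 10198 of 10465 probes as deposited, among them all 3 members tested. After scaling it called 1153 of 10465 (11%), with 2 of 3 members among them. It called 78 probes, with 1 member tested, when a value on every array was asked for. On Cy3 arrays it called 2 members (Arid3a, Prdm1) and 642 probes as deposited, 2 probes after scaling, 30 with a value on every array (1 member tested), 446 with unsettled arrays turned and 662 without them. Leaving out one array gave 0 to 1 members and 74 to 668 probes on Cy5 arrays and 0 members and 4 to 2563 probes on Cy3 arrays. The member called was Pax5 without array 3 of BalbxJ, Cxcl13 without array 5 of BalbxJ or array 83 of DBA/2J, and Tnfrsf13b without array 11 of BI6Jx, which left 1 Cy5 array there, taken to vary like those of other strains. In C3H 1 member, Prdm1, was called with a dye term per strain, as were 2.49% of probes. With the common dye term, leaving out one array gave 0 to 1 members there and 0 in the other strains. Prdm1 was the one called, without array 25 or 29, with 505 and 477 of 14513 probes. For the dye component, leaving out one strain gave 0 to 3 members and 0 to 1898 probes at an adjusted p under 0.05 (limma). The highest probe count, without C3H, was 1898 of 14966. At an unadjusted p under 0.05, which 24.2% of probes had with all strains, it gave 3 to 5 members. The share of probes at that p with a strain left out was not counted. The cause of these shifts was not tested. In the lists every count kept within 1.5 times its value. No paired analysis was possible because array numbers are not shared between groups and no label ties an array to its mice.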
